A study of Mus musculus with 6 samples.

Results

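Netrins and their receptors were examined as 10 genes of the authors' comparison between mouse cortical cells given an shRNA against Nat14 and cells given a control shRNA. The genes were the secreted netrins Ntn1, Ntn3 and Ntn4, the receptors Dcc, Neo1 and Dscam, and the 4 Unc5 receptors Unc5a, Unc5b, Unc5c and Unc5d. They were taken by symbol from a table of 21937 genes, and all 10 were present, 0 absent. The group was chosen by the fold change and p-value of Ntn1 in this same table, so the values below describe the table and test nothing.

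Neuronal progenitors of mouse embryos received by electroporation in utero, after injection into the lateral ventricle on embryonic day 14.5, a plasmid carrying the control shRNA (NTC, 3 libraries) or the Nat14 shRNA (shNat14, 3 libraries). On embryonic day 18.5 cortex was dissected from the brains and dissociated, and cells that were alive and positive for GFP were sorted. Every group thus passed through electroporation, a plasmid with an shRNA and a GFP sort, and the sources used here do not name the strain, the shRNA sequence or the plasmid promoter. Whether replicate libraries stem from different embryos or litters is not in the labels, and p-values therefore reflect only a spread between libraries that may be technical. The file gives 1 value per gene for the whole comparison and none per library, so values per sample, an SD and the depth of each library cannot be shown.

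Netrins are secreted proteins related to laminins that steer growing axons and migrating cells. Netrin 1 attracts through Dcc and through the related receptor Neo1, with Dscam as a further receptor, and it repels where a receptor of the Unc5 family is present, alone or together with Dcc. In the embryonic forebrain netrin 1 is known as a cue for axons that leave the cortex and for axons that cross the midline, and Unc5d is known as a marker of young neurons bound for the upper cortical layers.

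The coding sequences of the 3 netrins were compared for stretches that they share exactly. The alignment settings and annotation behind the deposited values are not known, so how reads were counted was not tested. Sequences were taken from GENCODE M21 transcripts and are shown with 20 bases on either side of the longest run that the pair shares exactly, which is in capitals. Positions count from 1 at the first base of the coding sequence. The pair Ntn1 (bases 1034 to 1090) and Ntn3 (bases 944 to 1000) shared at most 17 bases in a row.
Ntn1: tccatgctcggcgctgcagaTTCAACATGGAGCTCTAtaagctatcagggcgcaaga
Ntn3: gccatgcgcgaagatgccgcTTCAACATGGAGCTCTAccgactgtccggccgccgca

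The pair Ntn1 (bases 839 to 892) and Ntn4 (bases 770 to 823) shared at most 14 bases in a row.
Ntn1: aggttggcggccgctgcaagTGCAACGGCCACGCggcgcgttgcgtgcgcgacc
Ntn4: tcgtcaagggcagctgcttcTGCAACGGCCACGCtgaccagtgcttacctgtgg

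The longest runs within the receptor families were 27 bases, between Unc5b and Unc5c, and 21 bases, between Dcc and Neo1. Of all stretches of 50 bases in the annotated transcripts of the 10 genes, 0 were shared between any 2 of these genes. None of the 6226 such stretches of Ntn1 occurred in the transcripts of any other gene, and Ntn1 exons overlapped no other annotated gene. Ntn3 was the member with the most sharing, 2.54% of its stretches, most often with BC028777, annotated on the opposite strand. Its exons also overlapped those of Tbc1d24 on the same strand by 89 bases. Tbc1d24 had a mean log2 CPM of 4.11 in the authors' deposited table, beside 2.01 for Ntn3. How reads at the overlap were assigned is not known, so the Ntn3 value is uncertain by an unknown amount. Dscam shared 2.05% of its stretches, most often with a gene annotated on the opposite strand, and each of the other members at most 0.651%. Exons of Unc5a and Unc5c overlapped a gene on the opposite strand by 0.816% and 0.617% of their length.

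Netrin 1, the best studied of the ligands, had the lowest fold change of the 10 genes. The authors' deposited table listed Ntn1 at a log2 fold change of -2.60 (shNat14 relative to NTC), which is 16.5% of the control level. In the authors' deposited table its p was 0.000402 before and 0.126 after adjustment, so Ntn1 was not called at the threshold of 0.05. The direction of the table is not stated in its header and was read from the shRNA's target, Nat14, whose log2 fold change was -3.31. Ntn1 stood 70th of the 21937 genes when ordered by p. Of the 12015 genes with a mean level at least as high, 10 (Ntn1 included) had a fold change as low or lower. An approximate SE, taken from the size of the fold change and its p, was 0.73 on the log2 scale, with a 95% interval from -4.04 to -1.16. That interval comes from the same p that chose Ntn1, so it adds nothing to that p.

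Ntn1 was measured at a low level. Its mean log2 CPM was 0.80 in the authors' deposited table, below the median of all genes (1.71) and 3.89 above the lowest mean level in the table (-3.09). Group levels back-calculated from the mean level and the fold change were 2.98 CPM in NTC and 0.493 CPM in shNat14. The lowest mean level in the table was not subtracted, so the shNat14 level in particular is uncertain.

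The other netrins had higher fold changes than Ntn1, with wide intervals. Ntn3, a netrin that binds the same receptor families, was listed at a log2 fold change of 0.12 (p = 0.822) in the authors' deposited table. Its approximate 95% interval ran from -0.92 to 1.15. Ntn4, a netrin whose laminin-like domain is closer to laminin beta chains and which binds laminin networks, was listed at -1.41 (p = 0.213) in the authors' deposited table. Its mean log2 CPM was only -1.47 in the authors' deposited table, and its approximate interval from -3.64 to 0.81 was the widest of the 7 computed. Ntn1 was chosen for its value, so the netrins are set side by side and their differences were not tested.

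**Figure D1:**
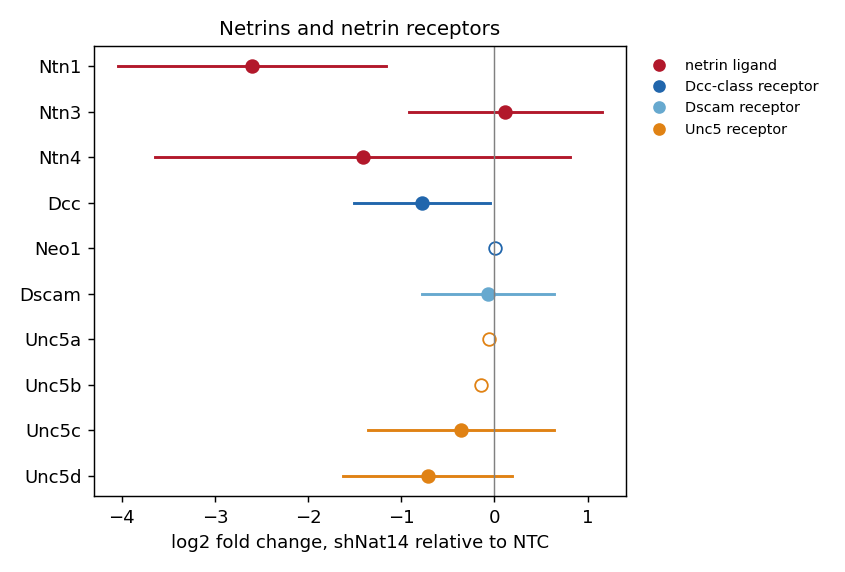
Log2 fold change (shNat14 relative to NTC, horizontal axis) of the 10 genes, coloured by role, from the authors' deposited table. Lines are approximate 95% intervals computed from each fold change and its p, and open circles are the 3 genes with p above 0.9, for which none was computed. The interval of Ntn1 comes from the p that chose it and adds nothing to that p. Ntn1 lies farthest to the left at -2.60, and the receptors lie between -0.78 and 0.0042.

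Dcc, Neo1 and Dscam gave 1 low value and 2 values near 0. Dcc, the main receptor for netrin attraction, was listed in the authors' deposited table at -0.78, or 58.3% of the control level, with a p of 0.0365 before and 0.951 after adjustment. Its mean log2 CPM in the authors' deposited table was 5.84, and its approximate 95% interval ran from -1.51 to -0.05. Neo1, the Dcc relative that also binds repulsive guidance molecules, was listed at 0.0042 (p = 0.99) and a mean log2 CPM of 6.55 in the authors' deposited table. Dscam, an adhesion molecule that also serves as a netrin receptor, was listed at -0.07 (p = 0.851) in the authors' deposited table and had an approximate interval from -0.78 to 0.64.

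All 4 Unc5 receptors had negative fold changes, and for none was the unadjusted p under 0.05. Unc5d was listed at -0.72 (p = 0.121) in the authors' deposited table, which is 60.8% of the control level, with an approximate interval from -1.62 to 0.19. Unc5c, a receptor of long-range repulsion, was listed at -0.36 (p = 0.478) in the authors' deposited table, and had an interval from -1.36 to 0.64. Unc5a and Unc5b were near 0 in the authors' deposited table, at -0.05 (p = 0.937) and -0.14 (p = 0.918). Unc5b, a receptor known from endothelial cells, had a mean log2 CPM of 0.45 in the authors' deposited table.

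To compare attractive with repulsive receptors, Dcc, Neo1 and Dscam were set beside the Unc5 receptors, although Neo1 also binds repulsive guidance molecules. The fold changes of both sets covered much the same range. Dcc, Neo1 and Dscam ran from -0.78 to 0.0042 with a median of -0.07, and the Unc5 receptors from -0.72 to -0.05 with a median of -0.25. Unc5d and Dcc, the lowest of each set, differed by less than either approximate SE (0.46 for Unc5d and 0.37 for Dcc).

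Counted over the group, the authors' deposited table called 0 of the 10 genes (adjusted p under 0.05), beside 0.155% of all its genes. At unadjusted p under 0.05 there were 2, Ntn1 and Dcc, beside 5.04% of all genes and 6.35% of the 17400 genes above the lowest mean level. Both were lower in shNat14, as were 2.25% of all genes and 2.84% of those 17400 at that threshold. Negative fold changes were found in 8 of the 10, where 47.6% of the 17400 genes above the lowest mean level were negative. The median log2 fold change of the 10 genes was -0.25, beside 0.0033 over those 17400 genes. These counts use the contrast that chose the group and are read as descriptions only.

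**Figure D2:**
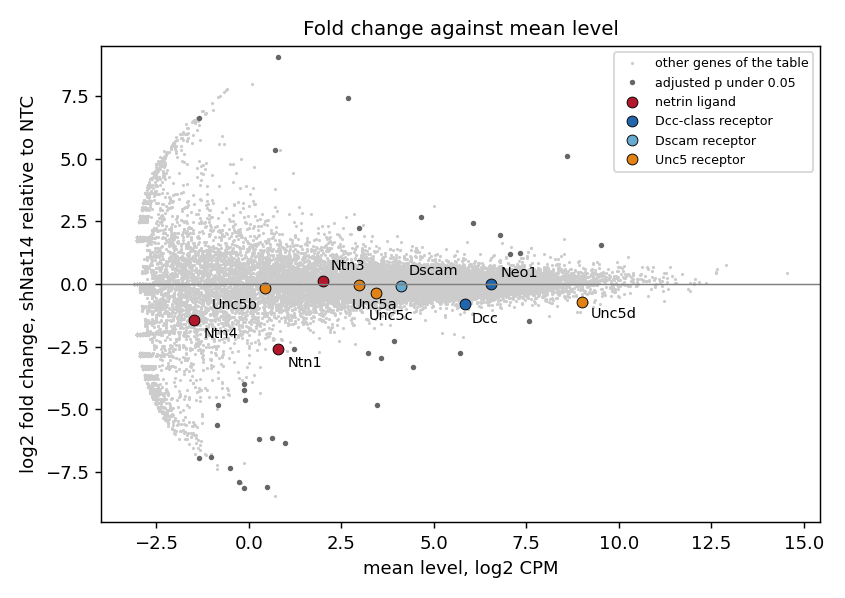
Log2 fold change (vertical axis) against mean level in log2 CPM (horizontal axis) for all genes of the authors' deposited table, with the 10 genes coloured by role and genes at adjusted p under 0.05 in dark grey. Ntn1 lies at the lower edge of the cloud at a mean log2 CPM of 0.80, whereas Dcc and Unc5d lie at -0.78 and -0.72 at higher levels, where the cloud is narrower.

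Levels between genes were compared per kilobase of annotated exon, with lengths from GENCODE M21, which may differ from the annotation behind the table. Unc5d was the most abundant by far, at a mean of 55.4 CPM per kb. Neo1 followed at 10.8, Dcc at 4.35, Dscam at 1.99 and Unc5a at 1.89 CPM per kb. Ntn3 (0.789), Unc5c (0.572), Ntn1 (0.277), Unc5b (0.219) and Ntn4 (0.0967) had mean levels below 1 CPM per kb. Unc5d was 5.14 times the next gene in this order, whereas Dscam and Unc5a differed by 1.05 times and Ntn1 and Unc5b by 1.27 times. Without values per library the spread around these levels is unknown, so the order of such close neighbours is not established. Unc5c depends on the length used and stood at 1.13 CPM per kb, above Ntn3, when the longest coding transcript was taken in place of all exons.

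Group levels were also summed by role. Summed over the 3 netrins, the back-calculated level was 1.37 CPM per kb in NTC and 0.953 in shNat14. Ntn3 made up 55.1% of the first sum and 86.2% of the second, so both sums carry the uncertainty from its overlap with Tbc1d24. Ntn1, whose value chose the group, went from 0.475 in NTC to 0.0785 CPM per kb in shNat14. Ntn3 went from 0.757 to 0.822, so the lower netrin sum follows mainly Ntn1. Summed over the 4 Unc5 receptors the back-calculated level was 71.7 CPM per kb in NTC and 44.4 in shNat14. Unc5d alone made up 96.1% and 94.2% of these sums, so the summed Unc5 level follows a single gene whose p was 0.121. For Dcc, Neo1 and Dscam the sums were 18.3 in NTC and 15.9 CPM per kb in shNat14. Dcc went from 5.50 in NTC to 3.21 in shNat14, Neo1 from 10.7 to 10.8 and Dscam from 2.03 to 1.94. The lower sum of these receptors thus follows mainly Dcc.

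**Figure D3:**
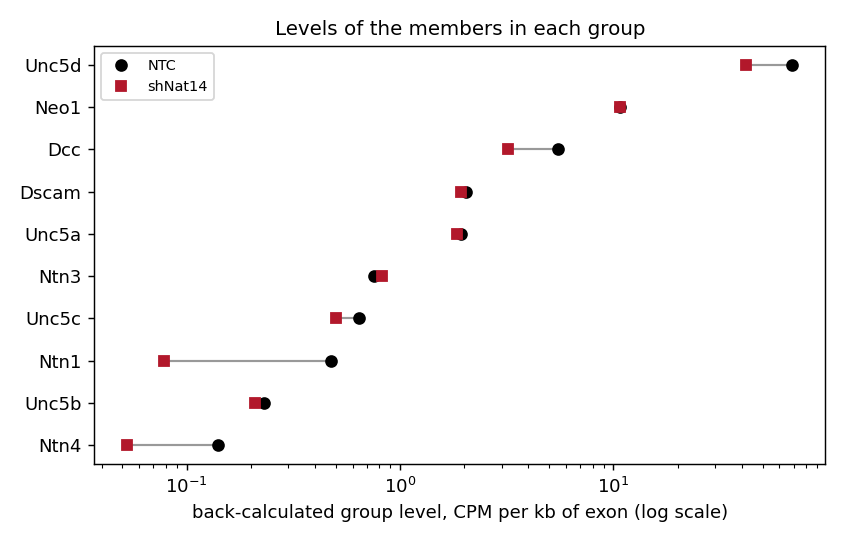
Back-calculated level of each gene in NTC (circles) and shNat14 (squares) in CPM per kb of exon, on a log scale, ordered by mean level. Each is 1 value per group with no spread between libraries. Unc5d stands highest, at 68.9 in NTC and 41.9 in shNat14, and the widest gap between groups is that of Ntn1, 0.475 against 0.0785.

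Other genes of netrin signalling were taken from 6 lists with 65 entries, all 65 of them in the table above its lowest mean level. Of these, 1 was called, lower in shNat14, beside 0.155% of all genes of the table, and 1 further gene had an unadjusted p under 0.05. That is 3.08% at unadjusted p under 0.05, beside 6.35% of the 17400 genes above the lowest level. Negative fold changes made up 44.6% of the 65 genes, and their median log2 fold change was 0.02. The 6 lists were chosen with earlier results of these data known, so these counts are descriptions only and no excess was tested.

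The called gene was Adora2b, an adenosine receptor that has been proposed as a netrin 1 receptor acting with Dcc, a role that is disputed. In the authors' deposited table it had a log2 fold change of -2.94 (adjusted p = 0.000143) at a mean log2 CPM of 3.58. It was 1 of 9 proposed netrin receptors or partners of Dcc outside the group, which had a median of -0.27. None of the other 8 had an unadjusted p under 0.05. They included the amyloid precursor App at 0.15, the Dscam relative Dscaml1 at -0.40 and the adhesion molecule Mcam at 0.68 in the authors' deposited table. Robo3, a receptor that modulates Dcc at the midline, was listed at -4.27 (p = 0.0948) in the authors' deposited table. Its mean log2 CPM in the authors' deposited table was -2.47, too low for the size of that value to be interpreted.

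Of 7 other ligands of these receptors, 0 were called. In the authors' deposited table Flrt3, a membrane protein that binds Unc5 receptors, had the smallest p of these (p = 0.0314, adjusted p = 0.914) and a log2 fold change of 0.70. Flrt2, the partner of Unc5d, stood at 0.31 (p = 0.279) and Draxin, a secreted protein that binds Dcc and netrins, at -0.53 (p = 0.154) in the authors' deposited table. In the authors' deposited table the Neo1 ligand Rgma was listed at -0.06 and its relative Rgmb at 0.49. Among 6 further netrin family genes and netrin-G partners the smallest p was that of Ntng1, a membrane-anchored netrin-G that does not bind Dcc or Unc5, at 0.78 (p = 0.113) in the authors' deposited table. Its paralog Ntng2 stood at -1.01 (p = 0.276) in the authors' deposited table.

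The lists of downstream signalling and of receptor shedding and turnover gave medians near 0. Of 22 genes of attractive signalling below Dcc, 0 were called and 0 had an unadjusted p under 0.05, and their fold changes ran from -0.75 to 0.62 with a median of 0.03. The smallest p was that of the GTPase Rac1, at 0.62 in the authors' deposited table (p = 0.057). Of 10 genes of repulsive and death signalling, 0 were called and 0 had an unadjusted p under 0.05, with a median of -0.12. Appl1, an adaptor that binds the Dcc tail, had the smallest p there, at 0.32 in the authors' deposited table (p = 0.207). Of 11 genes listed for receptor shedding and turnover the median was 0.08 and again 0 had an unadjusted p under 0.05. Siah1a, a ubiquitin ligase that targets Dcc, had the smallest p, at 0.65 in the authors' deposited table (p = 0.0723).

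**Figure D4:**
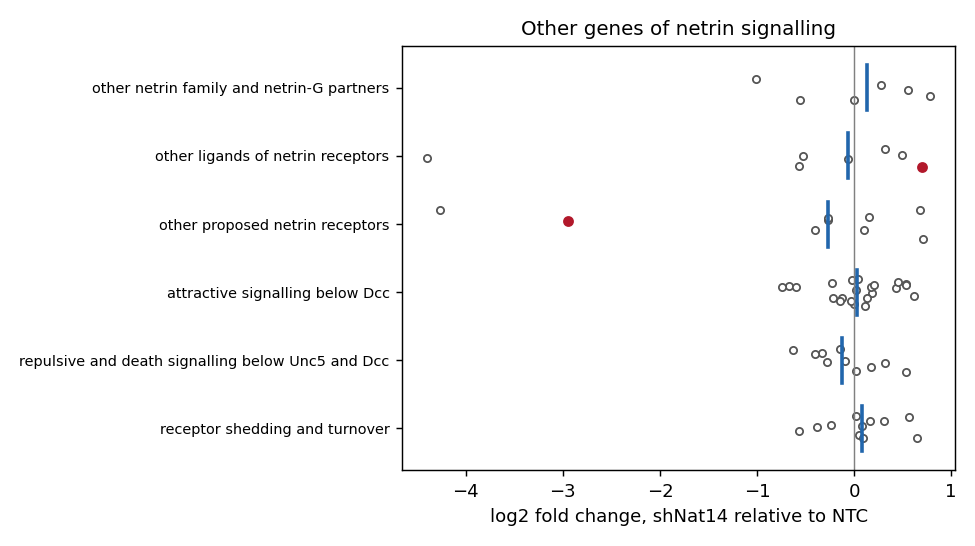
Log2 fold change (horizontal axis, shNat14 relative to NTC) of the genes in 6 lists of netrin signalling, 1 circle per gene, from the authors' deposited table. Blue bars are list medians, and filled circles are the 2 genes with an unadjusted p under 0.05, Adora2b at -2.94 and Flrt3 at 0.70.

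Markers of cell types that could differ between the sorted samples are set beside these values. The sort took live GFP-positive cells after electroporation of progenitors, a gate that selects for cells with the plasmid and their offspring. Neuronal markers had a median mean log2 CPM of 9.16 over 8 genes, and radial glia markers 6.66 over 9 genes. Median log2 fold changes were -0.07 for neurons, -0.11 for radial glia and 0.27 for intermediate progenitors, with 0 genes at unadjusted p under 0.05 in each. Of the 17400 genes above the lowest mean level, 2.84% were lower and 3.51% higher at that threshold. Markers of the subpallium and striatum had a median of -0.44, with 8 of 12 negative (47.6% of those 17400 genes were). In this list 4 were lower at unadjusted p under 0.05, namely Dlx1 (-0.79), Dlx5 (-0.76), Gad1 (-0.67) and Lhx6 (-1.69) in the authors' deposited table. The positive ones there were Dlx2 (0.03), Ebf1 (0.05), Six3 (0.11) and Gsx2 (1.41), so the list did not move as a whole. All 8 astrocyte markers were negative, with a median of -1.10 and 4 lower at unadjusted p under 0.05. Over the 6 at or above the median level the median was -0.89. In the authors' deposited table Gja1 and Slc1a2 were near 0, at -0.09 (p = 0.797) and -0.05 (p = 0.881). Their mean log2 CPM was 7.81 and 6.38, whereas Apoe, at 8.95, was listed at -1.10. The authors' deposited table called 1 of the 8 astrocyte markers, angiotensinogen (Agt), beside 0.155% of all its genes. All 8 microglia markers were negative, with a median of -1.44, 4 lower at unadjusted p under 0.05 and 0 called. All 6 endothelial markers were positive, with a median of 1.43, 1 higher at unadjusted p under 0.05 and 0 called, beside -0.14 for Unc5b. Only 1 of these 6, Cldn5, reached the median level of all genes, and it was listed at 0.18 in the authors' deposited table. Of 5 mural markers 2 were higher at unadjusted p under 0.05, and their median was 0.76 over all 5 and 1.41 over the 3 at or above the median level. Medians were 0.91 over 5 choroid plexus markers (0 at unadjusted p under 0.05), -0.52 over 6 meningeal fibroblast markers (1 lower) and -0.33 over 6 oligodendrocyte lineage markers (1 lower). Over the markers at or above the median level they were 1.35 for choroid plexus (2 genes), -0.58 for meningeal fibroblasts (4 genes) and -0.28 for the oligodendrocyte lineage (4 genes). The part of any of these cell types in the Ntn1, Dcc or Unc5d values was not tested, and in bulk samples fewer cells of a type and less RNA per cell cannot be told apart.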

How the data were processed

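The data were 1 table of the authors' own comparison of 3 shNat14 and 3 NTC libraries, grouped by the sample titles. Per the file headers, the authors deposited 4 numbers for each gene, namely its log2 fold change, its mean log2 CPM, its p-value and its adjusted p-value. Tools listed without roles, per the submitters' processing notes, are DESeq, HTSeq 0.5.4p1, SAMtools 0.1.19 and TopHat2 2.0.8. The same notes list a human build (hg19), although the samples and symbols are mouse. The build behind the table is therefore unresolved and no coordinates are given. How the authors normalized, tested and filtered and whether counting used strand are not stated in the sources used here. Depth per library is unknown.

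Deposited values were used as they stand. A gene was called where the authors' adjusted p lay under 0.05. The 4537 genes at the lowest mean level were left out of list summaries. Approximate SEs are the absolute fold change divided by the normal quantile of its two-sided p, which treats the authors' test as a normal one and was not computed for p above 0.9. Group levels assume that the mean level is the average of both groups. The lowest mean level, shared by 4537 genes, was not subtracted from them. Levels of weakly measured genes, such as Ntn4 and Ntn1, are therefore uncertain. List genes were matched by symbol (140) or by an older symbol in RefSeq GRCm38.p6 (3), and 1 further list is not reported here. Transcripts and exon lengths came from GENCODE M21. Adjustment code was tested on simulated data. Genes named in the text are the 10 members, Nat14, and per list of netrin signalling the called genes or the one with the smallest p. Other list genes, marker genes and overlapping genes named were chosen after their values were seen. Members and lists were chosen with earlier results of these data known. Python 3.11.15, pandas 2.3.3, numpy 2.4.6, scipy 1.17.1 and matplotlib 3.10.9 were used. Other thresholds, adjustments, centres and level filters were tried.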

Additional observations from a re-analysis of the deposited data

How the results depend on the processing

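The count of 0 called genes held at adjusted p under 0.1, after Bonferroni correction, and when p-values were adjusted over genes above the lowest level or over those at or above the median level, and it was 2 at unadjusted p under 0.05. The count of 2 genes at unadjusted p under 0.05 became 1 (Ntn1) at 0.01 and 1 (Dcc) among the 7 members at or above the median level. Of those 7, 5 had a negative fold change. After re-centring on the median of genes at or above the median level (0.03 on the log2 scale) 9 of 10 were negative, Neo1 having moved from 0.0042 to -0.03. The adjusted p of Ntn1 was 0.0999 over genes above the lowest level and 1 after Bonferroni correction. Ntn1 lies below the median level and has no value in the stricter set. Re-centring moved each member by less than its approximate SE, or by less than 0.1 where none was computed. Among genes at or above the median level, the median of other ligands was 0.31 in place of -0.06, and that of other netrin family genes and netrin-G partners 0.27 in place of 0.14. The use of the longest coding transcript as length was added after the data were seen, and moved only Unc5c by over 1.5 times. Fits that leave out a library, and a second count tool, were planned for values per library and were not run. No paired analysis was possible because the deposited values are not split by library.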
